A study of Mus musculus with 4 samples.

Results

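The genes described here encode the enzymes that copy DNA at the replication fork. They were chosen by name as a list of 33, and all 33 were measured, among 26378 genes tested on the arrays. RNA of isolated mouse pancreatic islets was amplified, labelled with Cy3 and hybridised to 4 Agilent arrays of a single colour, with 2 individual mice per genotype. The 2 control mice carried the Pdx1-Cre transgene alone and are titled wild type. The 2 Rb-deficient mice carried Pdx1-Cre together with floxed Rb alleles, written Pdx1-Cre:Rbf/f. All 4 mice thus carried Cre, and age, sex and strain are not in the labels. The Pdx1 promoter is active in the progenitors of the whole pancreas, so floxed sequence can be lost in acinar and duct cells as well as in islet cells. The question was how gene expression in islets differs when Rb is lost.

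At a replication fork, DNA polymerase alpha with its primase lays down short primers, polymerase epsilon extends the leading strand and polymerase delta the lagging strand. The ring-shaped clamp PCNA, loaded by replication factor C, holds the polymerases on DNA, replication protein A covers single strands, nucleases and a ligase join the Okazaki fragments, and histone chaperones rebuild nucleosomes behind the fork. Many of these genes are known targets of E2F transcription factors, which the retinoblastoma protein binds and restrains, and most adult islet cells divide rarely.

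Values are log2 of the processed signal relative to the array's 75th percentile, so a value of 0 lies at that percentile. Differences are Rb-deficient minus control, and standard errors are on the log2 scale, also where a fold is given. Of the 33 genes, 32 were higher in mean in Rb-deficient islets, where 41.9% of all genes tested and 52.5% of the 15825 genes with a symbol were. Both Rb-deficient values lay above both controls for 26 of 33, where this held for 15.3% of all genes tested and for 19.8% of genes with a symbol. For 0 of the 33 did both lie below, where this held for 20.7% of all genes tested. The median log2 difference was 0.69, a 1.62-fold difference, against a median of -0.07 over all genes tested and 0.02 over genes with a symbol. At least 2-fold higher were 7 of the 33, where 1.7% of all genes tested and 2.06% of those with a symbol were, namely Pole, Asf1b, Dscc1, Prim1, Pole2, Pola1 and Pcna. At least 2-fold lower were 0 of the 33, where 8.03% of all genes tested were.

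No gene of the list passed the test. With limma and p values adjusted by Benjamini-Hochberg across the 26378 genes, 0 genes were called at the threshold of 0.05, which is 0% of those tested, and adjusted p values of the 33 genes ran from 0.581 to 0.983. At an unadjusted limma p under 0.05, 14 of the 33 were higher and 0 lower, where 1.48% of all genes tested (1.88% of those with a symbol) were higher and 4.18% lower. When arrays were scaled to their median instead, limma called 5 of the 33, all higher, where 0.887% of all genes tested were called higher. These were Pole, Asf1b, Dscc1, Prim1 and Pole2. That fit gave Pole and Pole3 the same standard error, 0.55, where the fit without this scaling gave 0.69 and 0.19. Its calls thus follow the size of the difference and not the spread of each gene. Dscc1 was above background in the Rb-deficient group alone, and Pola2 and Dna2 on both Rb-deficient arrays and 1 control array. These genes entered the test only through the group where they are high, which bears on the counts of higher genes given here and above. Dscc1 is among the 5 called, among the 14 under 0.05 and among the genes at least 2-fold higher. Limited to probes above background on all arrays, 29 of 30 genes measured were higher in mean. Scaling to the median moved the median of all genes from -0.07 to 0.37. No exact permutation test was used, because 2 arrays against 2 give a two-sided p of 0.333 at the lowest. With normexp background correction the median of the 33 was 0.48, and for 14 of them the difference was smaller by more than 1.5 times. The normexp offset of 50, added to every signal, by itself makes differences of dim genes smaller, here and below. Differences are given as measured values with their errors.

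The shift was uneven between the Rb-deficient mice. Measured from the control mean, the median over the 33 genes was 0.44 on Rb-deficient array 1 and 0.93 on array 2, so that the median difference without array 2 is the first of these values. Array 2 stood above array 1 for 32 of the 33 genes, where it did for 44.1% of all genes tested. Pole3 was the exception. The direction of the median does not rest on 1 array, since leaving out control array 1 gave 0.69 and leaving out control array 2 gave 0.67.

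**Figure D1:**
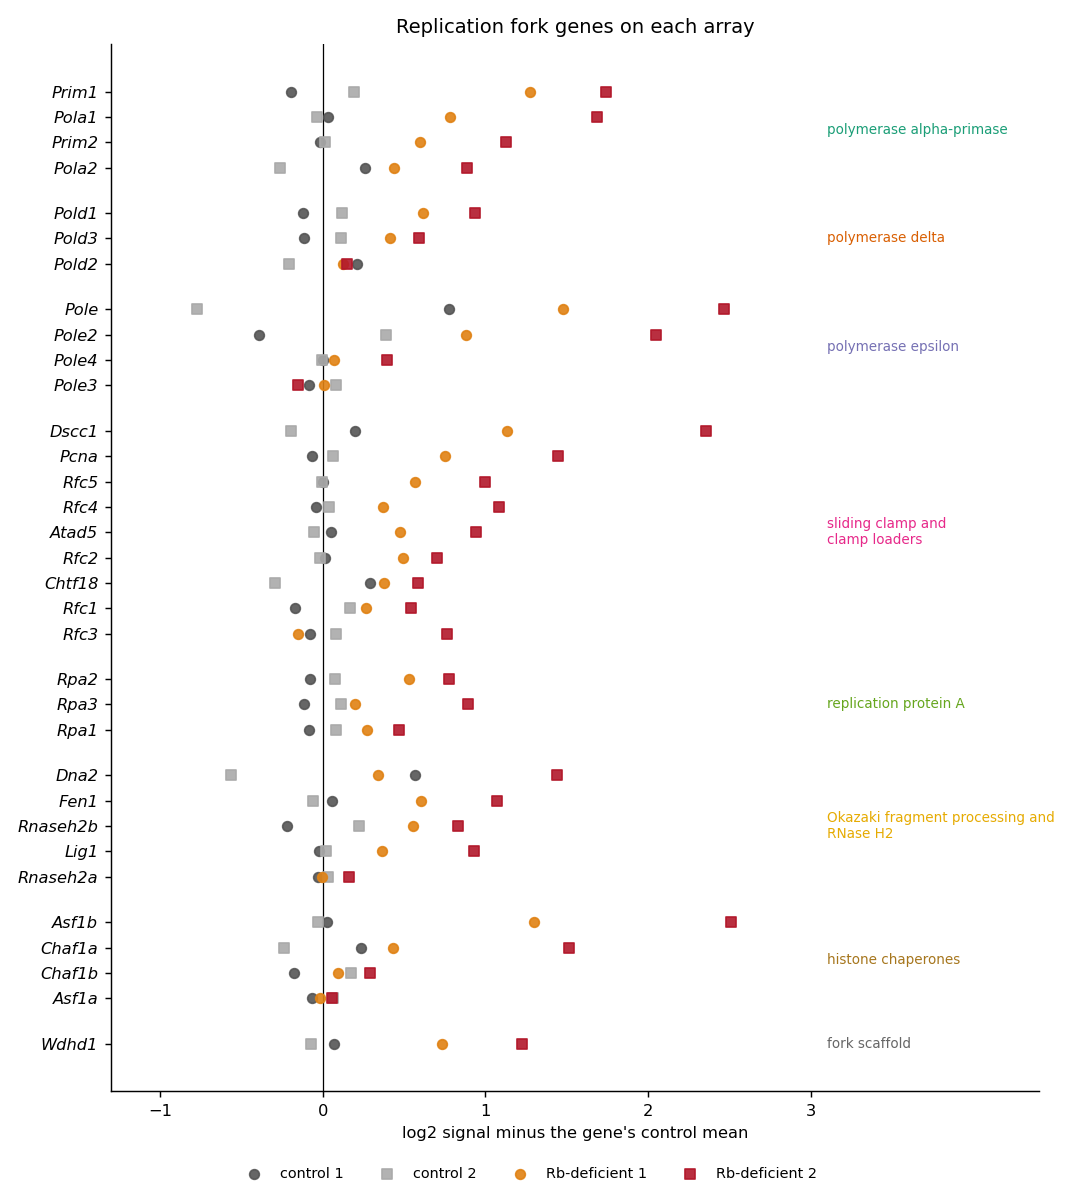
Log2 signal of each of the 33 replication fork genes minus that gene's control mean (x axis), with 1 point per array and genes grouped by role. The Rb-deficient arrays lie to the right of both controls for 26 genes, with array 2 farther out than array 1 for 32, while Pole3, Asf1a, Rnaseh2a and Pold2 lie near 0.

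**Figure D2:**
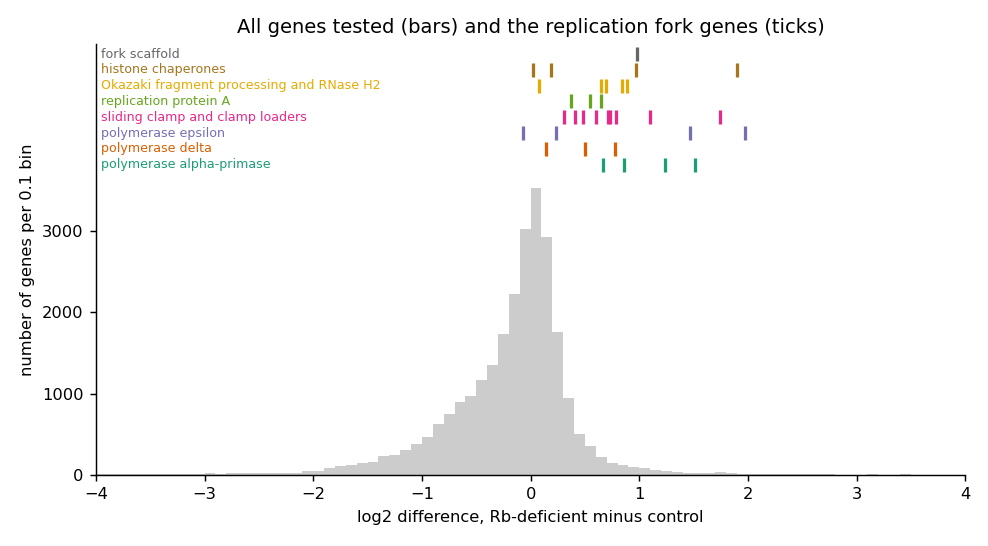
Number of genes per bin of 0.1 in log2 difference for the 26378 genes tested (grey bars), with a tick for each replication fork gene above, coloured by role. All ticks except that of Pole3 lie above 0, and the bars have their longer tail below 0.

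Control array 1 stood apart from the others in 2 respects. Well above background were 76.5% of its probes, against 59.0% to 59.9% on the other 3 arrays. It alone had Y-linked signal, with Eif2s3y at 1.15, while Xist was not well above background on it and lay between -1.35 and -0.65 on the other arrays. By these genes control array 1 was from a male, and control array 2 and both Rb-deficient arrays were from females. Sex was thus not balanced between the groups, and its part in the differences was not tested. Among the 13 replication fork genes with a control mean under -2, control array 1 was above control array 2 for 9, and among the 20 brighter genes for 6, where it was for 60.1% of all genes tested. The largest standard errors of the differences were 0.69 in the dim genes and 0.38 in the brighter ones. Pearson's r between pairs of arrays, across genes, lay between 0.951 and 0.979. No spot was saturated.

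Rb1, the deleted gene, had log2 signals of 0.28 and 0.86 in control and -0.48 and -0.90 in Rb-deficient islets. It was 2.40-fold lower, a log2 difference of -1.26 with a standard error of 0.31 (limma, Benjamini-Hochberg adjusted p 0.735). The groups did not overlap, but whether the probe lies in the deleted part is not known, so the values do not check the genotype.

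Promoter sequence was looked at because genes that differed together may share known E2F-type motifs. RefSeq windows of the GRCm38.p6 build, from 250 bases before to 50 after the annotated start, were matched by symbol to 28 of the 33 genes. They were searched on both strands for TTTCCCGC, TTTGGCGC, TTTCGCGC and TTTGCCGC, which can overlap one another on opposite strands. At least 1 match was held by 8 of the 28 genes, or 28.6%, against 2.60% of the 27025 genes with a window. The genes with a match were Pola1, Pold1, Pold3, Pole2, Pole4, Rfc3, Atad5 and Lig1. Their median log2 difference was 0.68, and that of the 20 genes without a match was 0.66, and the difference between these sets was not tested. Asf1b, Prim1 and Pcna, all at least 2-fold higher, held none in these windows, which says nothing of the factor elsewhere. Pole and Dscc1, also at least 2-fold higher, had no window and were not searched. The same holds for Prim2, Rfc2 and Rnaseh2b.

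The 4 windows that follow are those of the genes with the largest differences among the 8 with a match. They run 5′ to 3′ on the gene's own strand, with the match in capitals.
Pole2, chr12:69228141-69228440, - strand: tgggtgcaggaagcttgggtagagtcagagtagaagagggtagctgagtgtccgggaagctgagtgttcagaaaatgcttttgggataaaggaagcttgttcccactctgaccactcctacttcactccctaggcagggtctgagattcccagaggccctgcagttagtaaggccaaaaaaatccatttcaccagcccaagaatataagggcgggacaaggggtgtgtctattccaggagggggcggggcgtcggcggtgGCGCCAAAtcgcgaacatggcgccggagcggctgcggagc
Pola1, chrX:93632106-93632405, - strand: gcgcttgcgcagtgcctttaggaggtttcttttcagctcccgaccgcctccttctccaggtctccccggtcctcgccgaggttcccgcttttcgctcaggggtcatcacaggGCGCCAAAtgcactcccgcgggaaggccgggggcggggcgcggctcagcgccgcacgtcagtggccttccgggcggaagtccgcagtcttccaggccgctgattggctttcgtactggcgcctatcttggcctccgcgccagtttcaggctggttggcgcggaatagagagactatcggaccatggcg
Pold1, chr7:44548766-44549065, - strand: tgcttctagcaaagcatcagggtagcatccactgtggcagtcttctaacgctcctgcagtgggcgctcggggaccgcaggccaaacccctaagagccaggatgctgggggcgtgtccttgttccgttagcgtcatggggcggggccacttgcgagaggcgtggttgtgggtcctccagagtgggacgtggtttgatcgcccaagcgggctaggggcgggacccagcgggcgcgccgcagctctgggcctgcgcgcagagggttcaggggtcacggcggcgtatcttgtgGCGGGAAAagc
Atad5, chr11:80089150-80089449, + strand: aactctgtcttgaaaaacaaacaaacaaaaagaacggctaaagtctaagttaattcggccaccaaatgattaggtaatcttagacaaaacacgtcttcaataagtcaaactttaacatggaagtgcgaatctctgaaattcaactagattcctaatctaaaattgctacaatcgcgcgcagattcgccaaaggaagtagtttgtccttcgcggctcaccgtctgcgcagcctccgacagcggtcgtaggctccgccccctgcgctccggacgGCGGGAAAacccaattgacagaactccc
The Pole2 and Pola1 windows hold GCGCCAAA, the reverse complement of TTTGGCGC, first at positions 10 and -138 from the start. The Pold1 and Atad5 windows hold GCGGGAAA, the reverse complement of TTTCCCGC, first at positions 39 and 22.

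The windows of Asf1a and Pole3, shown as the genes with the smallest differences in size, hold none of the 4 motifs and so have no capitals. The 4 windows above were chosen for holding a match, so the contrast with these windows is set by that choice.
Asf1a, chr10:53596711-53597010, + strand: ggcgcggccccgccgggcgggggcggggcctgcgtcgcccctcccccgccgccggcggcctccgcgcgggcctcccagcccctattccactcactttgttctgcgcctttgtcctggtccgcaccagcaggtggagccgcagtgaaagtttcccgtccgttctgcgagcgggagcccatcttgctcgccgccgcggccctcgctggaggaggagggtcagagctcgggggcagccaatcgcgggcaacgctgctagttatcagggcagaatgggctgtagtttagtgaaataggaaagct
Pole3, chr4:62524965-62525264, - strand: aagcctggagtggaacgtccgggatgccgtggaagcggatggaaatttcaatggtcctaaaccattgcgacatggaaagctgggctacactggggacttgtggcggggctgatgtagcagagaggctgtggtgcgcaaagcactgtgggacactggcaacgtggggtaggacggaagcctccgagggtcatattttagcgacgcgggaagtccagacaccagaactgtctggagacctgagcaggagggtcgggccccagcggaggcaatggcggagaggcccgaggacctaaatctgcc
A match is a description of the letters and not evidence of binding. Rfc3 and Pole4 hold matches too, although their log2 differences were 0.31 and 0.23.

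**Figure D3:**
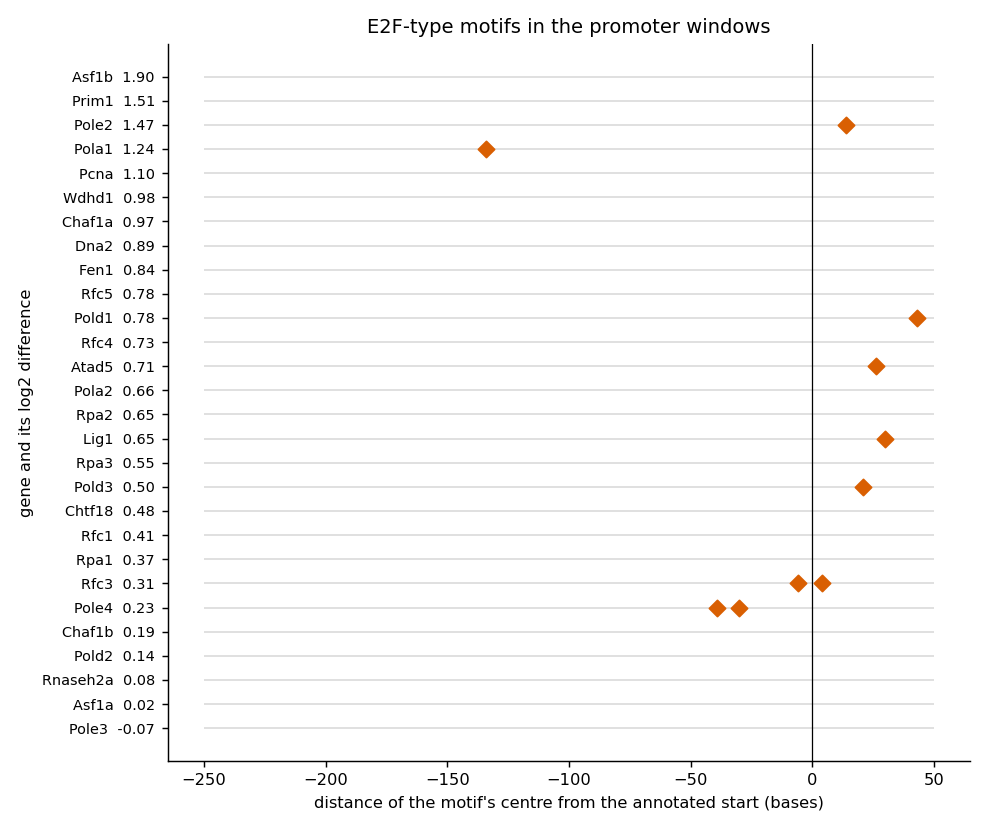
Position of E2F-type 8-base motifs (diamonds, motif centre, in bases from the annotated start) in the promoter windows of the 28 genes with a window, ordered by log2 difference, which is printed beside each name. The 8 genes with a match are spread over the order from Pole2 at 1.47 to Pole4 at 0.23, and the 2 diamonds of Pole4 are 1 match seen from 2 annotated starts.

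The polymerase alpha-primase complex was higher in all 4 subunits. Each had both Rb-deficient values above both controls, where 15.3% of all genes tested did. The median log2 difference was 1.05, or 2.07-fold, with medians of 0.69 and 1.41 above the control mean on Rb-deficient arrays 1 and 2. Prim1, the catalytic primase subunit that makes the RNA primer, was at 0.34 and 0.73 in control and at 1.82 and 2.28 in Rb-deficient islets. The groups were more than 1 log2 unit apart. Its log2 difference was 1.51 with a standard error of 0.28, a 2.85-fold difference and the smallest p of the 33 genes (limma, unadjusted 0.0063, Benjamini-Hochberg adjusted 0.581).

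Pola1, the catalytic polymerase subunit, was at -1.64 and -1.71 in control and at -0.89 and 0.02 in Rb-deficient islets, 2.35-fold higher. The controls nearly coincided, and the Rb-deficient mice differed from each other by about as much as array 1 did from the controls. Its second probe gave a log2 difference of 1.17 beside 1.24. Prim2, the regulatory primase subunit, averaged -3.02 in the controls (SD 0.02, n = 2) and lay at -2.42 and -1.89 after loss of Rb, 1.82-fold higher, a log2 difference of 0.86, or 0.48 with normexp. Pola2, the accessory polymerase subunit, was dim, with -4.56 and -5.09 in control and -4.39 and -3.94 in Rb-deficient islets, and was not well above background on control array 2. Its log2 difference was 0.66 with a standard error of 0.30, and it was 0.08 with normexp background correction.

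Polymerase delta differed less, with a median log2 difference of 0.50 over its 3 subunits on the list and 0.41 and 0.59 on the Rb-deficient arrays. Pold1, the catalytic subunit with proofreading activity, was at -0.30 and -0.06 in control and at 0.44 and 0.75 in Rb-deficient islets, 1.71-fold higher with a standard error of 0.22 on the log2 scale. Pold3, an accessory subunit that contacts PCNA, was 1.42-fold higher, and its 2 probes gave 0.50 and 0.48. Pold2, the structural subunit that joins them, was at 2.05 and 1.64 in control and at 1.97 and 2.00 in Rb-deficient islets. Its groups overlapped, and its log2 difference of 0.14 was smaller than its standard error of 0.23.

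Polymerase epsilon divided into 2 large and 2 small differences. Pole, the catalytic subunit, was at -3.10 and -4.64 in control and at -2.39 and -1.41 in Rb-deficient islets. Its log2 difference of 1.97, 3.92-fold, was the largest of the 33 genes and had the largest standard error, 0.69. Of the controls, the one with more probes above background was the higher, and the difference was 1.20 when control array 2 was left out and 2.75 when control array 1 was. Pole2, the subunit that links the polymerase to the helicase, was at -4.79 and -4.01 in control and at -3.52 and -2.35 in Rb-deficient islets. Pole2 was 2.76-fold higher, a log2 difference of 1.47 with a standard error of 0.54. With normexp background correction the differences of Pole and Pole2 were 0.90 and 0.52.

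Pole3 and Pole4 are small subunits with histone folds that bind histones, and Pole3 is also part of a chromatin remodelling complex. Pole3 was at -1.63 and -1.47 in control and at -1.55 and -1.71 in Rb-deficient islets. Its groups overlapped, and its log2 difference was -0.07 with a standard error of 0.19. It was the only one of the 33 below 0, and above 0 with quantile normalization (0.059) and median scaling (0.37). Pole4 was at -0.88 and -0.90 in control and at -0.82 and -0.49 in Rb-deficient islets, 1.18-fold higher, with a log2 difference of 0.23 and a standard error of 0.21, or 0.11 with normexp. Whether Pole and Pole2 differed from Pole3 and Pole4 in response was not tested. With normexp background correction the median of the 4 subunits was 0.31 in place of 0.85.

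Of the sliding clamp and its loaders, all 9 genes were higher in mean. Both Rb-deficient values lay above both controls for 8, where they did for 15.3% of all genes tested. The median log2 difference was 0.71, with 0.47 and 0.94 on the Rb-deficient arrays. Pcna, the clamp itself, was at 1.91 and 2.04 in control and at 2.73 and 3.42 in Rb-deficient islets. Pcna was 2.15-fold higher, a log2 difference of 1.10 with a standard error of 0.31. It was among the brighter probes of the list, and Rb-deficient array 1 lay about as far from array 2 as from the nearer control. With normexp background correction the median of the 9 was 0.39.

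Replication factor C opens the clamp and closes it around DNA. Its shared small subunits Rfc2, Rfc4 and Rfc5 were 1.51-fold, 1.66-fold and 1.72-fold higher. Rfc5 was at 0.71 and 0.71 in control and at 1.28 and 1.71 in Rb-deficient islets, and Rfc2 at 2.06 and 2.03 against 2.54 and 2.74. In both genes the controls nearly coincided. Rfc3, another shared subunit, was at -0.12 and 0.04 in control and at -0.20 and 0.72 in Rb-deficient islets. Rb-deficient array 1 was the lowest of its 4 values, so the groups overlapped, and the log2 difference of 0.31 had a standard error of 0.38 and was -0.15 without Rb-deficient array 2. Its second probe gave 0.34. Rfc1, the large subunit of the PCNA loader alone, was 1.32-fold higher, a log2 difference of 0.40 with a standard error of 0.23.

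The alternative loaders use the same small subunits. Dscc1, which joins the loader involved in cohesion of sister chromatids, was not well above background on either control array, at -5.25 and -5.64, and lay at -4.31 and -3.09 in Rb-deficient islets. It was 2.87-fold higher when set against the lowest signal measured above background on each control array. Its log2 difference was 1.75 with a standard error of 0.50. With normexp background correction the log2 difference was 0.39, so 2.87-fold is not a lower limit. Chtf18, the large subunit of that loader, was at -2.68 and -3.27 in control and at -2.60 and -2.39 in Rb-deficient islets, 1.39-fold higher with a standard error of 0.28, a log2 difference of 0.48, or 0.19 with normexp. Atad5, which unloads PCNA, was at -3.37 and -3.47 against -2.95 and -2.47, 1.63-fold higher, a log2 difference of 0.71, or 0.34 with normexp. A second Atad5 probe was above background on control array 1 alone and was not used.

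Replication protein A was higher in all 3 subunits, with a median log2 difference of 0.55 and 0.27 and 0.77 on the Rb-deficient arrays. Rpa2, the middle subunit that checkpoint kinases phosphorylate, was at -2.09 and -1.94 in control and at -1.49 and -1.24 in Rb-deficient islets, 1.57-fold higher with a standard error of 0.20, a log2 difference of 0.65, or 0.42 with normexp. Rpa3, the smallest, was 1.46-fold higher, from 1.09 and 1.32 to 1.41 and 2.10. Rpa1, the large subunit that holds most of the DNA binding, had the smallest difference of the 3 at 1.29-fold, with 3.98 and 4.15 in control and 4.34 and 4.54 in Rb-deficient islets. In each subunit both Rb-deficient values lay above both controls, where this held for 15.3% of all genes tested.

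Of the genes that mature Okazaki fragments and remove ribonucleotides, 3 of 5 had both Rb-deficient values above both controls. This held for 15.3% of all genes tested. The median log2 difference was 0.69, with 0.37 and 0.93 on the Rb-deficient arrays. Fen1, the nuclease that trims displaced flaps, was at 1.35 and 1.24 in control and at 1.90 and 2.37 in Rb-deficient islets. Fen1 was 1.79-fold higher, a log2 difference of 0.84 with a standard error of 0.24. Lig1, the ligase that seals the nick, was at 0.76 and 0.80 against 1.15 and 1.71, 1.57-fold higher. Its dimmer probe, above background on 3 arrays, gave a log2 difference of 1.69 beside 0.65. Dna2, a nuclease and helicase for long flaps, was not well above background on control array 2, and its values of -4.34 and -5.47 in control and -4.57 and -3.47 in Rb-deficient islets overlapped. Its log2 difference was 0.89 with a standard error of 0.60, and 0.17 with normexp background correction.

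The subunits of RNase H2, which removes RNA from DNA, did not differ alike. Rnaseh2b, an accessory subunit, was at -0.15 and 0.29 in control and at 0.62 and 0.90 in Rb-deficient islets, 1.62-fold higher, and its 3 probes gave log2 differences of 0.69, 0.91 and 1.05. Rnaseh2a, the catalytic subunit, was at 0.21 and 0.27 in control and at 0.23 and 0.40 in Rb-deficient islets, a log2 difference of 0.08 with a standard error of 0.18. Its second probe gave -0.42, with both Rb-deficient values below both controls, so the probes of this gene disagreed in direction.

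Among the histone chaperones the paralogues stood far apart. Asf1b and Asf1a both hand histones H3 and H4 to the assembly factors. Asf1b was at -2.65 and -2.70 in control and at -1.38 and -0.17 in Rb-deficient islets, 3.74-fold higher, with a log2 difference of 1.90 and a standard error of 0.47, or 1.21 with normexp. Asf1a was at -2.79 and -2.66 in control and at -2.75 and -2.67 in Rb-deficient islets, a log2 difference of 0.02 with a standard error of 0.18. From the control mean, the Rb-deficient arrays thus lay at 1.30 and 2.51 for Asf1b and at -0.02 and 0.06 for Asf1a. The difference between the paralogues was not tested.

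The chromatin assembly factor CAF-1 is recruited by PCNA. Chaf1a, its large subunit, was at -3.11 and -3.58 in control and at -2.91 and -1.83 in Rb-deficient islets, 1.96-fold higher, with a log2 difference of 0.97 and a standard error of 0.46, or 0.47 with normexp. Chaf1b was at 1.97 and 2.32 against 2.24 and 2.43, and its groups overlapped. Its log2 difference of 0.19 was smaller than its standard error of 0.22, and the difference between the subunits was not tested. The median of the 4 chaperones was 0.58, with 0.26 and 0.90 on the Rb-deficient arrays and 0.35 with normexp background correction.

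Wdhd1, the scaffold that ties polymerase alpha to the helicase, was at -2.76 and -2.90 in control and at -2.10 and -1.61 in Rb-deficient islets. It was 1.97-fold higher, with a log2 difference of 0.98 and a standard error of 0.25, or 0.52 with normexp background correction. Its other probes gave 1.39 and 0.35, all in the same direction.

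**Figure D4:**
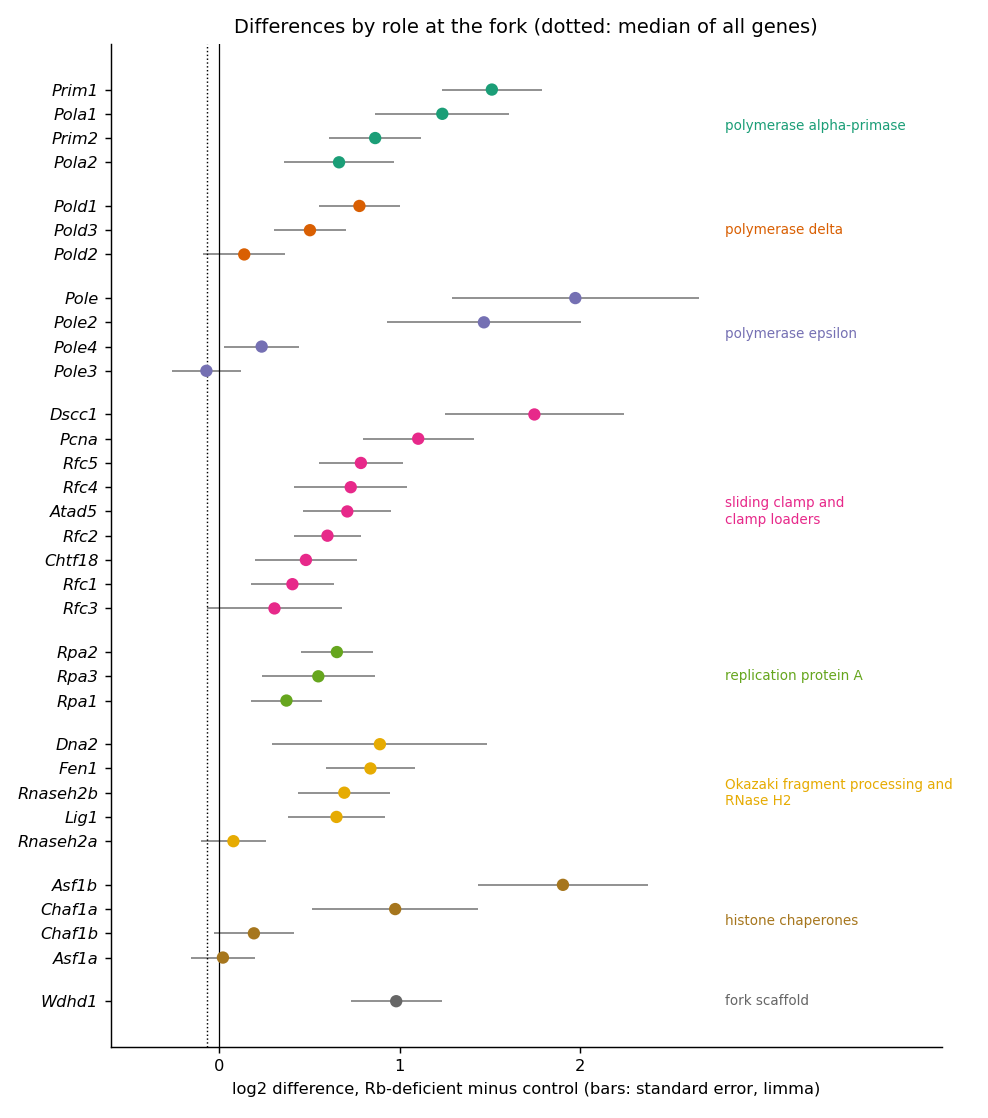
Log2 difference of each replication fork gene, Rb-deficient minus control, with its limma standard error as a bar, grouped by role, and the median of all genes as a dotted line. The differences run from -0.07 for Pole3 to 1.97 for Pole, and Dscc1 is drawn at its measured difference although its controls were not well above background.

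Other genes of DNA replication were taken from lists written by name. Of 16 measured MCM helicase and origin genes, 15 were higher in mean, 11 had both Rb-deficient values above both controls, where 15.3% of all genes tested did, and the median log2 difference was 0.74. Mcm3 and Mcm6, subunits of the helicase ring, were 6.80-fold and 5.64-fold higher, and Cdt1, which loads the ring, was 3.93-fold higher. Of 20 other fork genes measured, 16 were higher, 13 had both Rb-deficient values above both controls, and the median was 0.42. Gins1, a helicase cofactor, was 3.88-fold and Tipin, of the fork protection complex, 2.39-fold higher. Cdca7, a chromatin factor of dividing cells, was 5.07-fold higher. With normexp the log2 difference of Cdca7 was 1.19 in place of 2.34, and that of Gins1 0.97 in place of 1.96. In limma 0 of either list were called, and at an unadjusted p under 0.05 were 9 of the 16 and 4 of the 20, all higher, where 1.48% of all genes tested were.

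Polymerases outside the replicative set had a median nearer that of all genes. Of 12 measured polymerase genes of repair, translesion synthesis and mitochondria, 9 were higher in mean, where 41.9% of all genes tested were. Both Rb-deficient values lay above both controls for 3, where 15.3% of all genes did, and below both for 1, where 20.7% did. The median log2 difference was 0.11, or 0.04 with normexp, against -0.07 over all genes tested. Mad2l2, a subunit of polymerase zeta, was at 1.40 and 1.76 in control and at 1.86 and 1.98 in Rb-deficient islets, with a log2 difference of 0.34 and a standard error of 0.22. Polk, a translesion polymerase, had a difference of 0.30. Primpol, a primase that restarts stalled forks, was not well above background in control and entered the test only through the Rb-deficient arrays. It was at -5.09 and -5.54 in control and at -4.73 and -5.10 in Rb-deficient islets, so its groups overlapped. Its log2 difference was 0.40 with a standard error of 0.27, and 0.04 with normexp. At an unadjusted limma p under 0.05 were 0 of these 12, against 14 of the 33 replication fork genes. Of all genes tested 1.48% were higher and 4.18% lower at that limit, so 0 of 12 by itself says little. The difference between the lists was not tested.

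Proliferation markers were higher in mean in all 7 genes, where 41.9% of all genes tested were. The median log2 difference was 1.78, which was 0.68 with normexp background correction and 2.38 with quantile normalization. Mki67, the gene of Ki-67, was at -2.06 and -3.46 in control and at -0.98 and 0.06 in Rb-deficient islets, a log2 difference of 2.30, or 1.50 with normexp. Cdk1 and Aurka, kinases of mitosis, were 5.57-fold and 1.74-fold higher, Cdk1 being above background on 1 of the 2 control arrays. Bub1, another of the 7, was above background on neither control array. Cdk1 and Bub1 thus entered the test only through the group where they are high. The log2 difference of Cdk1 was 2.48, and 0.68 with normexp. Control array 1 was above control array 2 for all 7 markers, where it was for 60.1% of all genes tested, and leaving out control array 1 gave a median of 2.66, leaving out control array 2 one of 0.99.

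Marker genes of several cell types differed between the arrays as well, and fewer cells of a type cannot be told apart from less RNA per cell. Beta cell markers had a median log2 difference of 0.11, with Ins1 and Ins2, the insulin genes, at -0.23 and -0.22. The 12 acinar markers were all well above background on every array and all lower in Rb-deficient islets, with a median of -0.86 and medians of -0.44 and -1.28 on the Rb-deficient arrays. Their summed signal was 8890 and 7225 times the 75th percentile in control and 6530 and 3873 times in Rb-deficient islets. Macrophage markers, 12 in all and above background on every array, had 11 higher in mean, a median of 0.66 and 0.34 and 1.15 on the Rb-deficient arrays, while their summed signal was 45.8 and 44.2 in control and 50.1 and 41.7 in Rb-deficient islets. By list median, Rb-deficient array 2, on which the replication fork genes stood highest, was also the farther from control in both lists. By summed signal this held for the acinar markers alone, since the macrophage sum was above both controls on array 1 and below both on array 2. That sum is mostly Itgam, the brightest macrophage marker and the only 1 of the 12 lower in mean. Itgam was at 5.15 and 5.05 in control and at 5.23 and 4.43 in Rb-deficient islets. The sum therefore does not speak for the other macrophage markers. With quantile normalization the acinar median was -0.46. Their part in the replication fork values was not tested.

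Other marker lists were smaller or split. Alpha cell markers had a median of -0.82 with 3 of 4 below both controls and ductal markers -0.62 with 4 of 7 below both, where 20.7% of all genes tested were. The ductal median was -0.30 with normexp and -0.28 with quantile normalization. The medians were -0.17 for delta and PP cell markers, 0.01 for lymphocyte, 0.18 for endothelial and 0.28 for stromal markers. With quantile normalization the delta and PP cell median was 0.25 and the lymphocyte median 0.35, and with normexp the stromal median was 0.11. The stromal median was -0.27 on Rb-deficient array 1 and 0.58 on array 2.

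**Figure D5:**
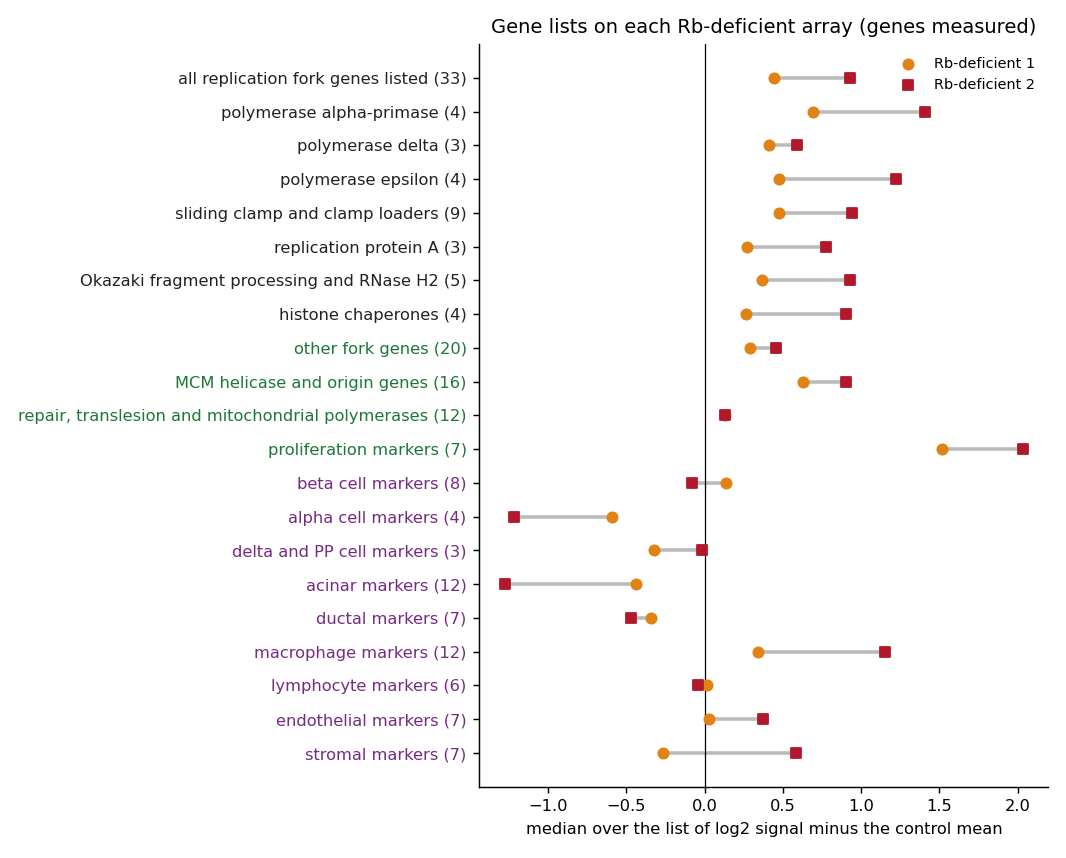
Median, over each gene list, of log2 signal minus the gene's control mean on Rb-deficient array 1 (circles) and array 2 (squares), with the number of genes measured in brackets. Every role at the fork that is drawn lies above 0 on both arrays. The repair and mitochondrial polymerases lie at 0.13 on both, and the acinar markers lie at -0.44 and -1.28. Wdhd1, alone in its role as fork scaffold, is not drawn as a role.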

How the data were processed

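Per the file headers, the authors scanned each array with Agilent Feature Extraction 12.0.3.1, and the deposited processed signal is an intensity after background subtraction and spatial detrending, not scaled between arrays. Values here are log2 of it minus the log2 75th percentile over non-control spots. Control spots and outlier spots were left out and the spots of a probe averaged. A probe was kept if both control arrays, or both Rb-deficient arrays, had it well above background, and the brightest probe was taken per gene. Accessions were matched to RefSeq gene symbols, which named 58.3% of 56605 probes. The groups and replicate numbers came from the sample titles, and all arrays shared 1 slide, so slide could not be a block.

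The comparison used limma (version 3.58.1, under R 4.3.3; two-sided, lmFit then eBayes, without covariates, 2 residual degrees of freedom), with Benjamini-Hochberg adjustment over all genes, after a run on simulated data. Precision is limited by having 2 arrays a group, and errors were larger for dim genes. Per the labels, RNA was amplified before labelling. The deposited value table holds the same intensity times a constant per array and served as an alternative. Alternatives were normexp (offset 50, on the median spot signal in place of the planned mean signal, since the scanner columns used here give a median for each spot and no mean), quantile normalization, median scaling, other filters, averaging of probes, the replicate block and leaving out each array. A percentile over probes was added after the data were seen. The genes and lists were chosen with earlier results of these data known. Every listed gene is accounted for. Of the pathway lists the 3 genes with the smallest p are named, and Bub1 for its background. Of the marker lists the 2 brightest of the beta cell list are named, and Itgam for its weight in the summed signal.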

Additional observations from a re-analysis of the deposited data

How the results depend on the processing

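With median scaling, which moved the median of all genes from -0.07 to 0.37, limma called 480 genes (1.82% of those tested), 234 higher and 246 lower, and 5 of the 33 replication fork genes, Pole, Asf1b, Dscc1, Prim1 and Pole2. The median of the 33 was then 1.13. The standard error was 0.55 alike for the genes called and for Pole3, so these calls follow the size of the difference alone. Under every other setting run, limma called 0 genes. In 1 setting, probes above background on all arrays, Pola2, Dscc1 and Dna2 were not measured. The replicate number as a block gave 0 calls, the same median of 0.69 and a lowest adjusted p (limma, Benjamini-Hochberg) of 0.304 among the 33 genes. With only 2 numbers a group and no label that ties them, the arrays share a number and no more (correlation of deviations 0.30). With 1 array left out the median of the 33 was 0.44 to 0.93, with 30 to 32 genes higher. The lone array of a group was then assumed to vary like the others.

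Genes near 0 turned in direction. Asf1a was at -0.017 with normexp and -0.0097 with the value table, and between -0.043 and 0.083 with an array left out. Pole3 was at 0.059 with quantile normalization, 0.37 with median scaling and between -0.15 and 0.0093 with an array left out. Rnaseh2a was at -0.17 with probes averaged. With an array left out, Pold2 was between -0.070 and 0.35, Rfc3 between -0.15 and 0.76 and Rnaseh2a between -0.0036 and 0.16. The cause was not tested.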
